A study of Homo sapiens with 6 samples.

Results

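A set of 10 genes known for long, structured 5′UTRs or for claimed internal initiation of translation were taken by symbol: MYC, MYCN, JUN, HIF1A, VEGFA, XIAP, MCL1, BCL2L1, CDKN1B and APAF1. Of these 10 genes, 6 were among the 8121 genes with a translational efficiency (TE) and 7 were among the 9570 mRNAs with a ribosome occupancy per codon. JUN, HIF1A, XIAP, MCL1 and CDKN1B had both measures, MYC had only TE, and VEGFA and APAF1 had only occupancy. MYCN and BCL2L1 were in neither table and are not analysed here.

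The data come from HEK293, a line derived from human embryonic kidney. The 3 ribosome footprint (RPF) samples and the 3 total RNA samples carry the same labels, HEK293 and Control siRNA, although the methods of the study name no siRNA for this experiment. Cycloheximide, which arrests elongating ribosomes, was given to the cells before lysis, and RPF and total RNA were taken from the same lysate. All samples are of a single condition, so no gene is compared between treatments, and p-values measure only the spread between the replicates, which the methods describe as a procedure carried out in triplicate. Of 10 genes listed as HEK293 markers 9 were present in at least 1 of the tables (PAX2 was absent), and of 9 markers of leukocytes, endothelium, liver, islets and muscle 0 were present.

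Most mRNAs are translated by a ribosomal subunit that binds at the cap, unwinds structure in the 5′UTR with the help of the helicase eIF4A and scans to the AUG. Long and GC-rich 5′UTRs, and short open reading frames within them (uORFs), can slow scanning, and mRNAs of growth and survival regulators are rich in both. For several of these mRNAs initiation at an internal ribosome entry site has been claimed, and some of those claims are disputed. MYC and JUN are transcription factors that drive proliferation. HIF1A is the oxygen-regulated subunit of the hypoxia-inducible factor and VEGFA the angiogenic ligand that it induces. XIAP inhibits caspases, MCL1 restrains cell death at the mitochondrion, CDKN1B (p27) inhibits cyclin-dependent kinases, and APAF1 is the scaffold of the apoptosome.

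The start codon contexts are shown because ribosome occupancy at the AUG differed widely between these mRNAs. The sequences are from GRCh37 (the build of hg19), with the annotation of GENCODE 44 lifted to that build, and read 5′ to 3′ along the mRNA with the AUG in capitals as ATG. The JUN start lies at chr1:59248728-59248757 (minus strand), MCL1 at chr1:150551992-150552021 (minus), CDKN1B at chr12:12870759-12870788 (plus), HIF1A at chr14:62162508-62162537 (plus), APAF1 at chr12:99042123-99042152 (plus), XIAP at chrX:123019498-123019527 (plus) and VEGFA at chr6:43742081-43742110 (plus). Each stretch spans the end of the 5′UTR and the first codons of the coding sequence (CDS) of the transcript with an occupancy, all within 1 exon. For VEGFA this is a short transcript, with 41 codons of 5′UTR and 164 codons of CDS with the stop. VEGFA has 20 annotated coding transcripts, with a 5′UTR of up to 496 nt. All VEGFA values at the AUG and in the 5′UTR follow the annotation of the short transcript. Footprints there may come from other VEGFA transcripts, so these values are not shown to describe initiation or a 5′UTR. Whether the AUG of the short transcript lies within the CDS of other VEGFA transcripts was not tested.
JUN start codon: gtgacggactgttctATGactgcaaagatg
MCL1 start codon: cggcggcgactggcaATGtttggcctcaaa
CDKN1B start codon: agacccgggagaaagATGtcaaacgtgcga
HIF1A start codon: ggggaccgattcaccATGgagggcgccggc
APAF1 start codon: aagatctgagggaagATGgatgcaaaagct
XIAP start codon: tattttcaagagaagATGacttttaacagt
VEGFA start codon: tcccaggctgcacccATGgcagaaggagga

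The sites that held the most in-frame footprints in the long 5′UTRs of JUN, HIF1A, CDKN1B and APAF1 are shown with the occupied codon in capitals, together with the only AUG of the CDKN1B 5′UTR. Codons are counted backwards from the AUG, so that codon −1 is next to it. The sites lie at chr1:59249595-59249624 (minus) for JUN, chr14:62162307-62162336 (plus) for HIF1A, chr12:12870612-12870641 (plus) and chr12:12870240-12870269 (plus) for CDKN1B and chr12:99039322-99039351 (plus) for APAF1.
JUN codon −289: ggcagtatagtccgaACTgcaaatcttatt
HIF1A codon −67: ccctgacaagccaccTGAggagaggctcgg
CDKN1B codon −49: cctagagctcgggccGTGgctcgtcggggt
CDKN1B codon −173: ccgccgccgcaaccaATGgatctcctcctc
APAF1 codon −106: accgcggcgctccggGACtgtggggtcagg

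TE, the deposited ratio of RPF to total RNA per gene, was highest for JUN and MCL1 and close to the middle of all genes for HIF1A and XIAP. JUN had a TE of 1.66, 1.64 and 1.50 in replicates 1, 2 and 3, a mean of 1.60 ± 0.0855 (SD, n = 3). MCL1 had 1.14, 1.15 and 1.16, a mean of 1.15 ± 0.00826. These were the 88.9th and 83.2nd percentiles of all genes, whose median TE was 0.383.

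CDKN1B followed with a TE of 0.703, 0.777 and 0.707 in the replicates, a mean of 0.729 ± 0.0418 (SD, n = 3) at the 71.7th percentile. MYC had 0.551, 0.530 and 0.528, a mean of 0.537 ± 0.0128 at the 62.3rd percentile. The gene lies at chr8:128747680-128755197, and its longest annotated 5′UTR (1205 nt) is the longest of the 10 genes. HIF1A had a TE of 0.474, 0.461 and 0.474, a mean of 0.470 ± 0.00765 at the 57.6th percentile. XIAP had the lowest TE of the 6, with 0.437, 0.409 and 0.459 and a mean of 0.435 ± 0.0253 at the 54.8th percentile.

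In the order JUN, MCL1, CDKN1B, MYC, HIF1A, XIAP the replicate values of neighbours did not overlap, though the gap was narrow at the low end. JUN exceeded MCL1 by 0.448 in mean TE, MCL1 exceeded CDKN1B by 0.421 and CDKN1B exceeded MYC by 0.193. MYC exceeded HIF1A by 0.0668. HIF1A exceeded XIAP by 0.0346, and the lowest HIF1A replicate (0.461) was only just above the highest XIAP replicate (0.459). With 3 values a gene, an exact permutation test cannot fall below 0.10, so none was made and the order is a description.

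**Figure D1:**
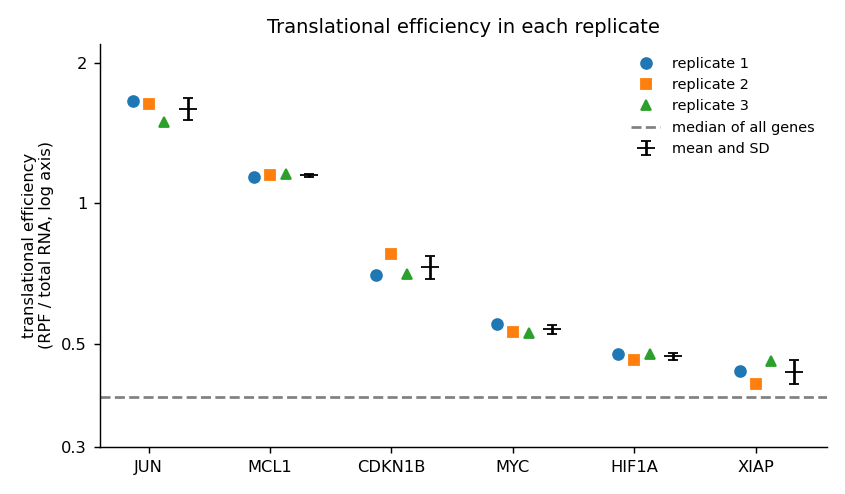
TE (ratio of RPF to total RNA, logarithmic axis) of 6 genes in replicates 1, 2 and 3 (points), with the mean and SD (bars) and the median of all genes (dashed line, 0.383). All replicates of all 6 genes lie above the median, from 0.409 for XIAP to 1.66 for JUN.

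Against the median of all genes, limma with Benjamini-Hochberg adjustment called all 6 genes higher and 0 lower, where 44.7% of all genes were called higher and 44.6% lower. JUN lay above the median by 2.03 ± 0.055 (SE) on the log2(TE + 0.01) scale (adjusted p = 3.43e-06) and MCL1 by 1.56 ± 0.047 (adjusted p = 4.46e-06). For CDKN1B the difference was 0.91 ± 0.056 (adjusted p = 4.81e-05) and for MYC 0.47 ± 0.049 (adjusted p = 0.000375). HIF1A differed by 0.29 ± 0.048 (adjusted p = 0.00277). XIAP differed by 0.18 ± 0.056 (adjusted p = 0.0303), a call that was lost without replicate 1 (0.17, adjusted p = 0.0963) or without replicate 3 (0.15, adjusted p = 0.134). JUN and MCL1 were also at least 2-fold above the median (limma treat, adjusted p = 4.21e-05 and 0.000220), which was so for 23.3% of all genes. The median gene had an SD of 0.10 between replicates (log2), and 89.3% of all genes were called different from the median.

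Among partners of MYC, the MYC and MAX network of repressors and cofactors, 7 of 10 listed genes had a TE, of which 3 were called higher than the median and 4 lower. They ranged from MGA at 0.0753 ± 0.00509 (SD, n = 3) to MNT at 0.755 ± 0.0653, which puts the TE of MYC within their range. Of 11 other AP-1 proteins, the family with which JUN dimerizes, 5 had a TE, of which 2 were called higher and 1 lower. Their TE ran from 0.305 ± 0.0291 for JUND to 0.901 ± 0.181 for ATF7, all below the 1.60 of JUN. The ATF7 value is uncertain because 81.1% of the 30-base stretches of its CDS also occur in a transcript of another gene.

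Of 14 genes of HIF regulation and angiogenic ligands 11 had a TE. Of these, 10 were called higher (44.7% of all genes were) and 5 at least 2-fold (23.3% of all genes). Only ARNT, the partner subunit of HIF1A, was called lower. ARNT had a TE of 0.201 ± 0.0101 (SD, n = 3), against 8.10 ± 0.190 for RBX1, the RING subunit of the ubiquitin ligase that degrades HIF1A.

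In the IAP and BCL2 lists more genes were called lower than higher, where 44.6% of all genes were called lower and 44.7% higher. Among IAPs and their antagonists, the group of XIAP, 5 of 8 had a TE, with 1 called higher and 3 lower, from BIRC2 at 0.132 ± 0.00512 to BIRC5 at 0.818 ± 0.0231 (SD, n = 3). In the BCL2 family, the group of MCL1, 9 of 16 had a TE, with 2 called higher and 6 lower. BAD, a promoter of cell death, was the lowest at 0.0404 ± 0.00404. BIK, also a promoter of cell death, was the highest at 1.17 ± 0.188, overlapping MCL1. The partners of APAF1 had 4 of 6 genes with a TE, of which 3 were called higher. CYCS (cytochrome c) was the highest of them at 2.095 ± 0.0933, and 69.2% of its CDS stretches are shared with pseudogenes.

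CDKN1B stood above the other listed CDK inhibitors in TE. Of 7 such genes 6 had a TE, 0 were called higher and 5 lower, with CDKN1A (p21) lowest at 0.164 ± 0.0141 (SD, n = 3). CDKN2D, the highest in the mean at 0.403 ± 0.207, ranged from 0.238 to 0.635 between replicates and was not called, and its highest replicate was below the lowest replicate of CDKN1B (0.703).

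RNA-binding proteins that have been proposed to aid internal initiation were high in TE. Of 14 measured genes (of 16 listed) 13 were called higher, 10 of them at least 2-fold, and 0 lower. Among all genes 44.7% were called higher and 23.3% at least 2-fold higher. PTBP1, which binds pyrimidine tracts, was the lowest at 0.417 ± 0.0204 (SD, n = 3) and was not called. HNRNPL was the highest at 133 ± 6.32, a value that is uncertain since 51.3% of its CDS stretches occur in other transcripts. Shared sequence was not computed for the unnamed genes of this list, so their high values may carry the same uncertainty. Among other mRNAs with claimed internal initiation 15 of 22 had a TE, with 4 called higher and 9 lower. The range was from BAG1, a co-chaperone, at 0.0573 ± 0.00357 to HSPA5, the chaperone BiP, at 9.36 ± 0.734, with 33.8% of the HSPA5 stretches shared. The claim of internal initiation thus covered mRNAs from the 1.56th to the 98.9th percentile of TE.

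Ribosome occupancy, the in-frame RPF reads at a codon scaled by the authors to library size and to the abundance of the mRNA, was deposited with the replicates combined. Its values are the authors' and carry no replicate error. Averaged over the CDS, HIF1A was the highest at 0.0849 per codon (78.0th percentile of all mRNAs), followed by CDKN1B at 0.0698 and XIAP at 0.0697 (70.7th and 70.6th). JUN had 0.0643 (67.0th), MCL1 0.0556 (60.3rd), VEGFA 0.0384 (42.3rd) and APAF1 0.0382 (42.0th). The median of all mRNAs was 0.0450, so VEGFA and APAF1 lay below the middle and the other 5 above it.

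The genes with the highest TE were not those with the highest occupancy. Among the 6912 genes in both tables the Spearman coefficient between TE and mean CDS occupancy was 0.688, a description across genes that share libraries. JUN went from the 89.0th percentile in TE to the 60.7th in occupancy, and MCL1 from the 83.3rd to the 52.9th. HIF1A went the other way, from the 57.3rd to the 73.8th, as did XIAP, from the 54.5th to the 64.9th. CDKN1B was at the 71.5th and 65.0th. Footprints in the CDS of XIAP are uncertain because 21.8% of its 30-base stretches occur in BIRC8 or XIAP pseudogenes, and for HIF1A 5.59% occur elsewhere. JUN, MCL1, CDKN1B, VEGFA, APAF1 and MYC shared 0%.

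**Figure D2:**
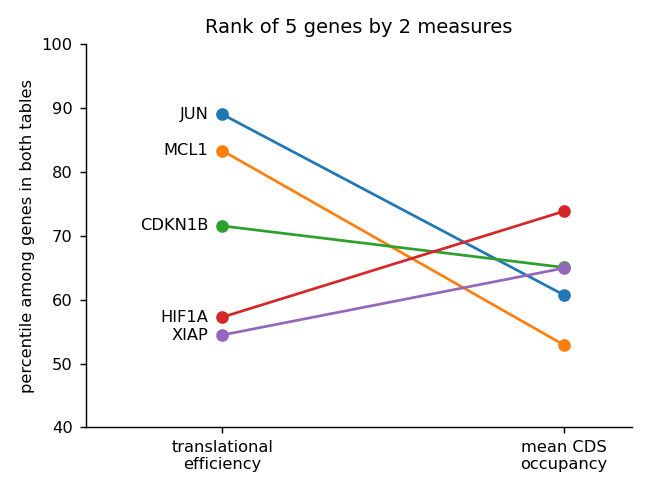
Percentile of 5 genes (lines) by TE on the left and by mean CDS occupancy on the right, among the 6912 genes with both measures. JUN and MCL1 fall to the 60.7th and 52.9th percentiles, and HIF1A rises to the 73.8th.

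The in-frame reads behind each occupancy value could be recovered, because every value added up from 3 steps, each the worth of a single read in 1 of 3 libraries. All 2721 values above 0 were solved, with 0 ambiguous, for a total of 51816 reads. HIF1A had 18818 reads, MCL1 12512, JUN 11501, XIAP 2969, APAF1 2833, CDKN1B 2796 and VEGFA 387. The libraries are named by their number of reads, since the steps do not say which replicate they belong to. Each library contributed from 26.8 to 37.5% of the CDS occupancy of VEGFA and from 31.2 to 35.3% for the other 6 mRNAs. The 95% intervals below are exact binomial intervals of these reads and cover counting error only.

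**Figure D3:**
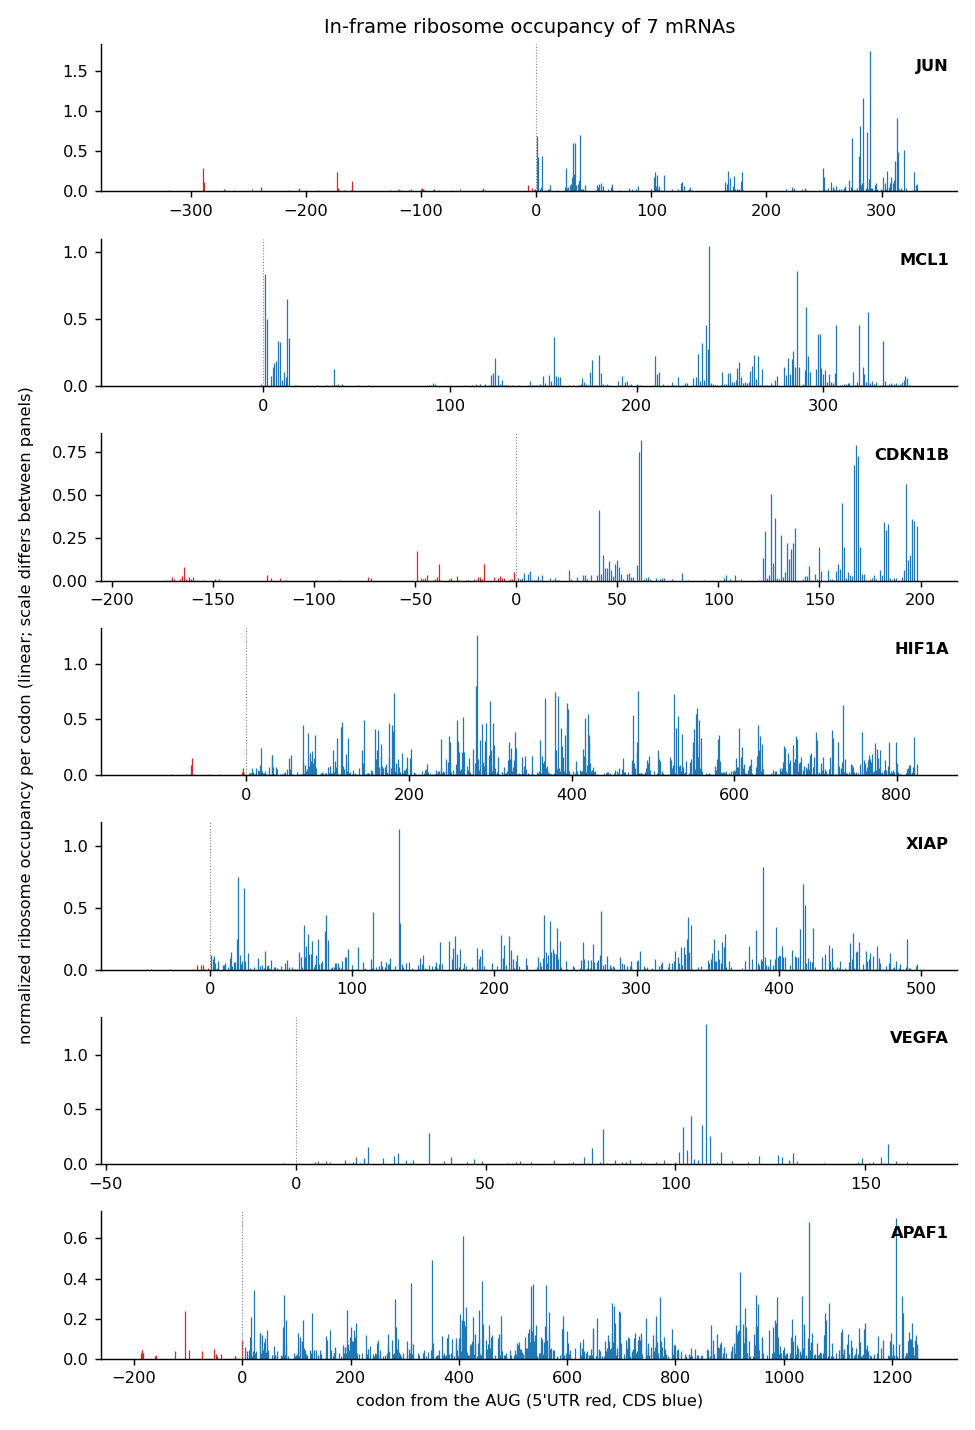
Normalized ribosome occupancy at each codon (vertical axis, linear, scaled per panel) against the codon counted from the AUG, for 7 mRNAs, with the 5′UTR in red and the CDS in blue. JUN and MCL1 carry high values at the AUG (0.691 and 0.837), and VEGFA carries a single value of 1.28 at codon 108.

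At the AUG, MCL1 and JUN had far more occupancy than most mRNAs. MCL1 had 531 reads on the AUG codon, with 201, 209 and 121 in the libraries with the most, the middle and the fewest reads, or 15.1 times its CDS mean (96.6th percentile). JUN had 333 reads there, with 124, 123 and 86 by library, or 10.7 times the mean (94.3rd percentile). The median over all mRNAs was 0.286 times. Codon 2 was also high, with 317 reads in MCL1 and 211 in JUN.

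HIF1A, with the most reads of all 7, had 0 of its 18697 CDS reads on the AUG, which by the limit of 3 reads that a count of 0 allows is a share of up to 0.0160%, where its CDS mean would give 22.6 reads a codon. APAF1 also had 0, of 2759 CDS reads, which by the same limit is up to 0.109% and where the mean would give 2.21 reads. An AUG at 0 was found in 40.3% of all mRNAs. XIAP had 11 reads at the AUG (1.69 times the mean), CDKN1B 2 (0.183 times) and VEGFA 1 (0.357 times). CDKN1B was high instead at the end of the CDS, with 62 reads on the last codon before the stop, or 4.56 times its mean (95.1st percentile).

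Along the CDS, 6 of 7 mRNAs had a lower mean occupancy in the first 75 codons than in the last 75, which was so for 50.1% of all mRNAs long enough for both windows. The log2 ratio of first to last was −1.51 for VEGFA, −1.36 for CDKN1B, −0.89 for JUN, −0.89 for MCL1, −0.81 for HIF1A and −0.57 for APAF1, against a median of −0.0035 over all mRNAs. Only XIAP had more at the start, at 0.50. In windows of 50 codons VEGFA and MCL1 turned to 0.55 and 0.39, so their direction depends on the window.

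Within the CDS, the highest codon held a large part of the occupancy in VEGFA and a small part in HIF1A and APAF1. This share depends on CDS length, which was 164 codons in VEGFA, 827 in HIF1A and 1249 in APAF1. As a multiple of the CDS mean, the highest codon was at the 81st percentile in VEGFA, the 22nd in HIF1A and the 38th in APAF1. The highest codon of the short VEGFA transcript in the table (164 codons with the stop) was codon 108, with 77 of 386 CDS reads (28, 27 and 22 by library), or 20.4% of the CDS occupancy (97.5th percentile) and 33.4 times the mean. This AGA codon lies in a stretch that crosses a splice junction, and codons 104 and 107 just before it were also high, with 27 and 22 reads. In JUN codon 290 had 851 reads (339, 306 and 206), 8.18% of CDS occupancy and 27.2 times the mean, and codons 284 and 313 came next with 554 and 444. These lie in the last part of the CDS, which encodes the basic region and leucine zipper. MCL1 was highest at codon 239 with 668 reads, 18.8 times the mean. Over all mRNAs the median of this multiple was 21.0, and of the members only VEGFA and JUN were above it. HIF1A was highest at codon 284 with 336 reads, 14.9 times the mean and 1.80% of its CDS occupancy (5.38th percentile). In HIF1A 13.9% of codons had no read, against a median of 43.4%. The share of codons without a read depends on depth, and HIF1A had the most reads of the members. The VEGFA site spans an intron within chr6:43746272-43746653 (plus), and the JUN and MCL1 sites lie at chr1:59247861-59247890 and chr1:150550927-150550956 (minus), with the highest codon in capitals.
VEGFA codon 108: agaccaaagaaagatAGAgcaagacaagaa
JUN codon 290: aaaaccttgaaagctCAGaactcggagctg
MCL1 codon 239: aaactggacatcaaaAACgaagacgatgtg

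XIAP and CDKN1B had 2 or more separate high sites. XIAP had 97 reads at codon 133, 68 at codon 389 and 64 at codon 20. CDKN1B had 154 and 134 reads at the neighbouring codons 62 and 61 and 154 at codon 168. Its codon 62 was at 11.8 times the mean, a low multiple for a highest codon (9.45th percentile). APAF1 had 40, 37 and 36 reads at codons 1207, 1047 and 408, the highest of them 18.3 times the mean and 1.47% of its CDS occupancy (2.69th percentile).

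Before the AUG, JUN and CDKN1B carried far more of their occupancy than the other mRNAs. The 5′UTR of JUN held 9.03% of its in-frame occupancy (93.3rd percentile), and that of CDKN1B held 7.52% (91.8th). The median of all mRNAs was 0.364%. In reads, JUN had 1060 of 11501 in the 5′UTR, a share of 9.22% (95% interval 8.69 to 9.76) that ran from 7.46 to 10.3% over the libraries. CDKN1B had 201 of 2796, or 7.19% (6.26 to 8.21), from 5.73 to 9.38% over the libraries, and its share was highest in the library with the fewest reads. The intervals of JUN and CDKN1B do not overlap, but the ranges over their libraries do.

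APAF1 had 43 of 2833 reads in the 5′UTR, 1.52% (95% interval 1.10 to 2.04), and 1.59% of occupancy (72.2nd percentile). HIF1A had 121 of 18818, 0.643% (0.534 to 0.768), and 0.628% of occupancy (58.0th). XIAP had 15 of 2969, 0.505% (0.283 to 0.832), and 0.476% of occupancy (53.7th). MCL1 had 11 of 12512, 0.0879% (0.0439 to 0.157), of which 9 lay on the codon next to the AUG. VEGFA had 1 of 387, 0.258% (0.00654 to 1.43), and its share could not be told apart from that of any but JUN and CDKN1B at this depth.

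**Figure D4:**
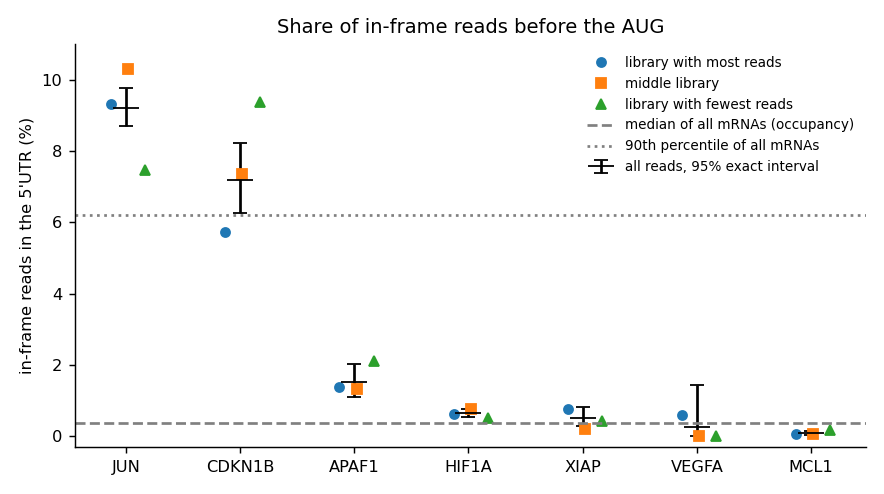
Percentage of in-frame reads before the AUG for 7 mRNAs, for all reads with the 95% exact interval (black) and in each of 3 libraries (coloured points), with the median (0.364%) and 90th percentile (6.21%) of the occupancy share over all mRNAs. JUN (9.22%) and CDKN1B (7.19%) stand above the 90th percentile.

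The JUN 5′UTR was the longest of the 7, while APAF1 and CDKN1B, of nearly the same length, differed in their shares. In the table, JUN had 344 in-frame codons of 5′UTR (99.2nd percentile), APAF1 189 (94.7th), CDKN1B 186 (94.4th) and HIF1A 131 (86.0th). MCL1 had 66, XIAP 49 and VEGFA 41, around or below the median of 56, so these 3 table transcripts do not have long 5′UTRs. Per codon, the 5′UTR of JUN had 0.0962 of the occupancy of its CDS, a ratio at the 71.3rd percentile, and that of CDKN1B 0.0871, at the 69.3rd. APAF1 had the highest ratio, 0.108. The part of length in the shares was not tested. GC content in the last 90 bases before the AUG was 73.3% in VEGFA, 71.1% in HIF1A, 63.3% in MCL1, 62.2% in JUN, 58.9% in APAF1 and 56.7% in CDKN1B, against a median of 65.6% over 5937 matched mRNAs, so only VEGFA and HIF1A were above it. For XIAP only the last 10 codons of the 5′UTR had a certain sequence.

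Reads in the JUN 5′UTR lay on 138 of its 344 codons, and the highest of these were far from the AUG. Codon −289, an ACT printed above, had 150 reads (67, 61 and 22 by library), and with codon −288 it held 209 reads or 19.2% of the 5′UTR occupancy. Codon −173 (GAC) had 123 reads and codon −160 (GGG) had 64. None of these 3 codons is an AUG or a near-cognate of it. The JUN 5′UTR held 0 ATG in any frame on the mRNA strand, whereas 98.3% of the 58 matched 5′UTRs of at least that length hold one in a stretch of the same length. It held 8 in-frame stop codons, the last at codon −67. The 66 codons open in frame from there to the AUG had 170 reads, 0.00522 of occupancy per codon, against 0.00642 in the 278 codons before.

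CDKN1B had most of its 5′UTR reads in a uORF near the 5′ end and in a cluster nearer the AUG. Its single ATG in any frame, at codon −173, opens a reading frame of 30 codons that ends at a stop at codon −144. An in-frame ATG was present in 63.3% of the 417 matched 5′UTRs of at least that length. This uORF had 42 reads (9, 15 and 18 in the libraries with the most, the middle and the fewest reads), on 15 of its codons, and 22.3% of the 5′UTR occupancy. Its occupancy per codon was 0.00839, against 0.00608 over the whole 5′UTR, and whether it is translated was not tested. Further down, codon −49, a GTG, which is a near-cognate of AUG, had 32 reads (9, 18 and 5), the highest of the 5′UTR. From that GTG to the stop at codon −25 there were 79 reads and 38.4% of the 5′UTR occupancy. In the 24 codons open to the AUG there were 61 reads, 0.0138 of occupancy per codon, against 0.00494 in the 162 codons before. Within those 162 codons, the stretch from the GTG to the stop had 0.0174 per codon, above that of the open stretch. The first 29 codons of this 5′UTR lie past the annotated start of the transcript and were read from the adjoining genome, which includes the ATG of the uORF.

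In HIF1A the 121 reads of the 5′UTR were concentrated at codons −68 and −67, with 67 reads (34, 22 and 11 by library) and 54.2% of the 5′UTR occupancy. Codon −67 is an in-frame TGA stop codon and had 42 reads. No ATG in any frame was found in its 131 codons, whereas 83.4% of 1039 matched 5′UTRs hold one in that length. The 5 codons before the AUG had 27 reads although the AUG itself had 0. APAF1 had 12 of its 43 reads at codon −106 (GAC), which held 30.2% of the 5′UTR occupancy, and 4 at codon −1. Its 5′UTR held 2 ATGs, both out of frame with the CDS, and reads in other frames are not in the table. MCL1 and VEGFA each held 1 ATG, also out of frame. The MCL1 ATG lies past the annotated start of the matched transcript, in sequence read from the adjoining genome.

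**Figure D5:**
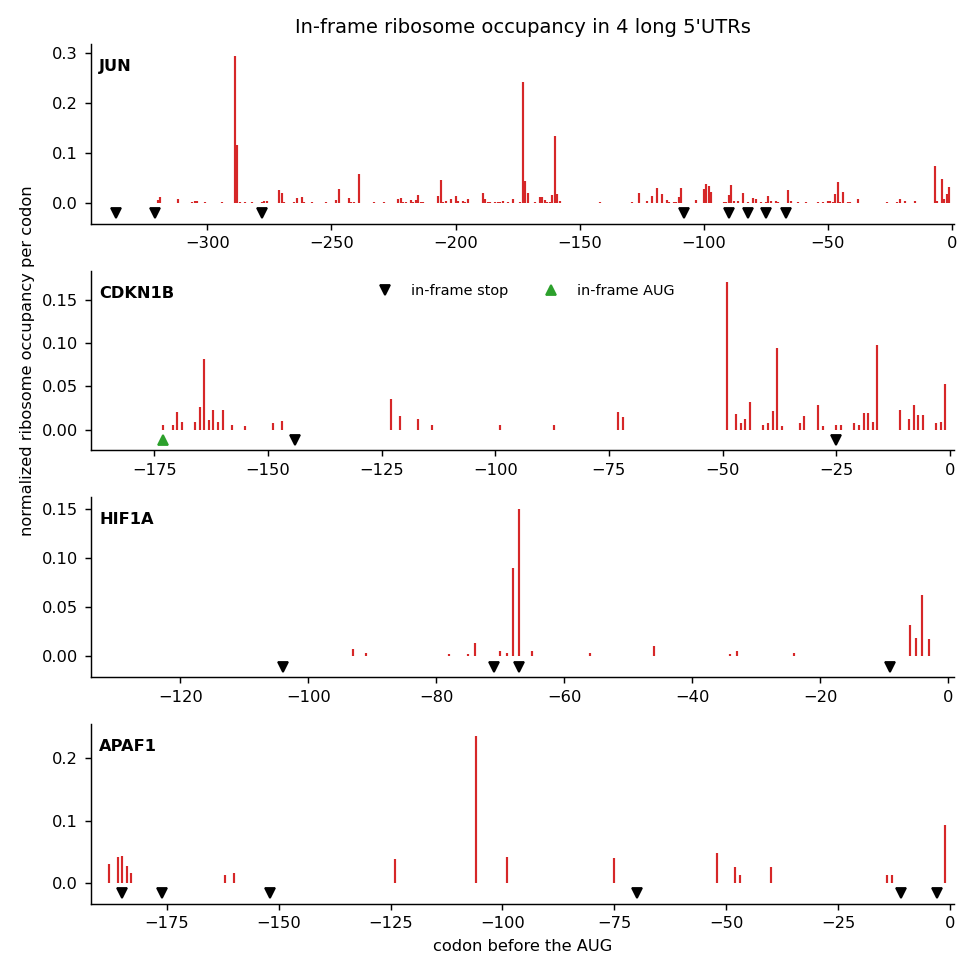
Normalized ribosome occupancy per codon in the 5′UTR of JUN, CDKN1B, HIF1A and APAF1, against the codon counted back from the AUG, with in-frame stop codons (black triangles) and the in-frame AUG (green triangle). JUN is highest at codon −289 (0.294), CDKN1B at −49 (0.170), HIF1A at −67 (0.150) and APAF1 at −106 (0.236).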

How the data were processed

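Ribosome profiling and total RNA sequencing were made in HEK293 cells, with 3 samples each. Submitters' processing notes name cutadapt 1.16, Bowtie 1.1.2, TopHat2 2.1.1 and HTSeq 0.9.1, and the study's methods name Hisat2 for total RNA. The authors deposited TE as a linear ratio (its formula: not given in the sources used here) and occupancy as a per-codon score, RPF reads of hg19 transcripts (the most abundant of each gene) divided by TPM with replicates combined. Depth per sample cannot be read from these tables. The replicates of TE had medians of 0.382, 0.380 and 0.388, and their log2 values correlated at 0.987, 0.988 and 0.990 (Pearson, across genes).

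Differences of TE from the overall median were computed on log2(TE + 0.01) in R 4.3.3 with limma 3.58.1, without a filter, with Benjamini-Hochberg adjustment over 8121 genes at an FDR of 0.05, and with treat at a log2 threshold of 1. The code was tested on simulated data. Reads were recovered with a relative tolerance of 1e-11. In 31 transcripts of the occupancy table lists broken over lines were rejoined. Of 9570 transcripts 8742 (91.3%) matched GENCODE by symbol and CDS length. Where the 5′UTR of the table reached past the annotated start, by 19 codons in JUN, 34 in HIF1A, 40 in MCL1 and 29 in CDKN1B, the adjoining genome was read on the assumption of no intron. Shared sequence is the percentage of CDS stretches of 30 bases found in another gene's transcript. From each gene list the genes with the highest and lowest mean TE are named, and the 3 highest codons of each CDS, outside the first 5 and last 5, were ranked. Another gene that this rule takes is not reported here. The members, gene lists and tests were chosen with earlier results of these data known, and the uORF, AUG and paired-codon values were chosen after the values had been seen. Python 3.11.15, numpy 2.4.6, pandas 2.3.3, scipy 1.17.1 and pysam 0.24.0 were used.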

Additional observations from a re-analysis of the deposited data

Results flagged for a closer look

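In-frame reads after the stop codon, which enter no comparison, were above the 3 that a count of 0 allows in 4 mRNAs, and no control sample gives their background. JUN had 46 (15, 15 and 16 in the libraries with the most, the middle and the fewest reads), or 0.422% of its occupancy, and APAF1 had 31, of which 17 were on a single codon. XIAP had 26 on 21 codons of a 3′UTR of 2273 codons, and CDKN1B had 5. In the first 10 codons after the stop JUN, XIAP and CDKN1B had 0 reads and APAF1 had 2. HIF1A, with the most reads in its CDS, had 0 in its 3′UTR.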

How the results depend on the processing

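Of 90 alternative values for TE, 88 kept their direction and call, or their count within 1.5 times. The other 2 were the calls of XIAP without replicate 1 and without replicate 3. In the fit with the replicate block, which removes the median of each replicate, 7265 genes differed from the median and 3375 by at least 2-fold, against 7249 and 3365, and the block changed no call of the 6 genes. Of 48 alternatives for occupancy 24 moved beyond counting error and 2 turned direction, the ratio of first to last window in VEGFA (0.55) and MCL1 (0.39) with windows of 50 codons. By the median over codons in place of the mean, JUN fell from the 67.0th to the 49.0th percentile of CDS occupancy, VEGFA was at 0 and APAF1 rose from the 42.0th to the 64.1st. Without the 5 codons next to the AUG the 5′UTR share of MCL1 was 0.00791% in place of 0.0986%. The causes were not tested. VEGFA rests on 387 reads.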
